A study of Chlamydomonas reinhardtii with 2 samples.

Results

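The loci described here are the unnamed part of the transcripts that fell when Chlamydomonas reinhardtii, a unicellular green alga, was kept without phosphate. They were chosen from a deposited table of 17147 gene loci. A locus was taken if the table gave it no gene symbol, if its mean over both libraries was at least 1 RPKM (read numbers adjusted for the length of the transcript and the size of the library), and if its log2 fold (deprived against replete, 1 RPKM added to each value) was -1 or less. Of 13916 loci without a symbol, 10835 reached that mean, and 132 of these (1.22%) were at least 2-fold lower. The rule leaves 1 of the 132 out, so that 131 loci are described. Among the 3020 loci with a symbol that reached the same mean, 95 (3.15%) were at least 2-fold lower, and over all 13855 loci the share was 1.64%. Since the fold chose the loci, their folds and levels are given as a description, without a test.

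The samples were 2 RNA sequencing libraries from the wild-type strain 21gr (CC-1690), 1 per condition. The replete culture was kept for 24 h in TAP, an acetate medium, with 1.1 mM phosphate, and the deprived culture for 24 h in the same medium without phosphate. Light was continuous (70 µmol photons m-2 s-1), the temperature was 25 °C and shaking was at 200 rpm in both cultures. Without replicates the values have no replicate error, and a difference of culture or library preparation cannot be told apart from the difference in phosphate. In bulk RNA, fewer transcripts per cell and fewer cells that express a gene cannot be told apart either.

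Phosphate is a building block of nucleic acids, phospholipids and nucleotides, and algae deprived of it take up and recycle it through induced transporters and phosphatases. In Chlamydomonas the MYB-related regulator PSR1 controls much of that induction. Growth slows as internal phosphate is used up. A locus without a symbol is a predicted gene to which no curated name had been given, and for most such loci nothing is known of the protein from the deposited table.

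The lower loci without a symbol covered a wide range of levels. In the replete library they ranged from 1.85 to 1547 RPKM with a median of 20.1 RPKM, and in the deprived library from 0.387 to 530 RPKM with a median of 7.88 RPKM. The lower loci with a symbol had a median of 112 RPKM with phosphate and 39.7 RPKM without it. The unnamed loci were thus mostly of lower abundance than the named ones that fell with them. Over all loci with a mean of at least 1 RPKM, the replete median was likewise lower without a symbol (4.59 RPKM) than with one (15.8 RPKM). The median log2 fold was -1.18 for the 131 loci and -1.23 for the 95 with a symbol, beside 0.14 over all 13855 loci and 0.15 over all loci without a symbol.

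**Figure D1:**
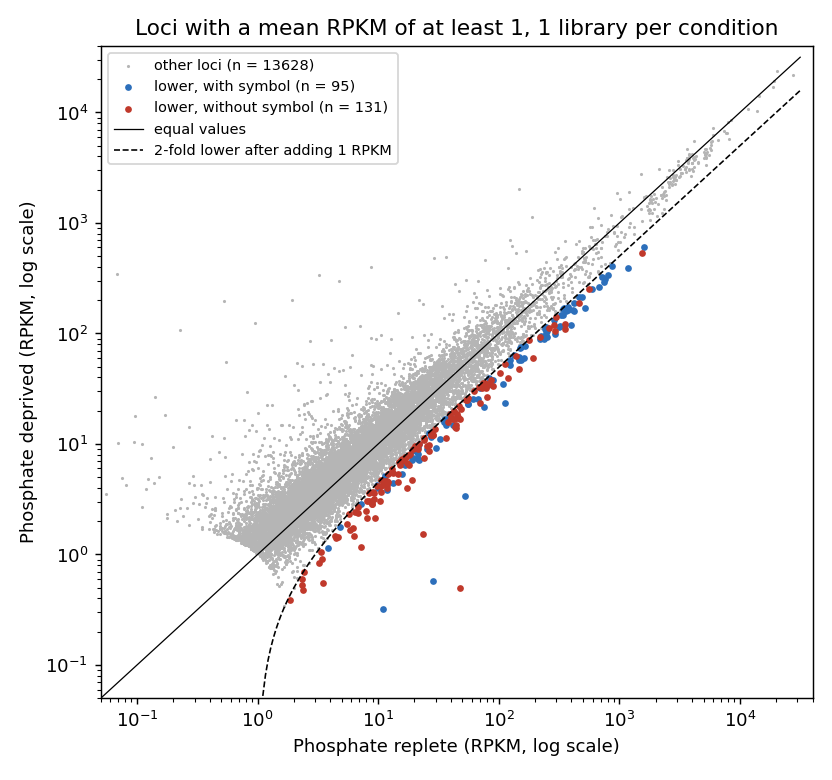
RPKM in the deprived library (vertical axis) against the replete library (horizontal axis), both on log scales, for loci with a mean of at least 1 RPKM, with the solid line at equal values and the dashed line at the 2-fold threshold after adding 1 RPKM. The 131 lower loci without a symbol (red) lie on or below the dashed line, from 1.85 to 1547 RPKM in the replete library, and most of them lie close to it.

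Most of the differences were moderate. Of the 131 loci, 72 had a log2 fold between -1.2 and -1, 36 lay between -1.5 and -1.2, 21 between -2 and -1.5, and 2 beyond -2. By level, 17 loci had at least 100 RPKM in the replete library, 15 had 50 to under 100 RPKM, 65 had 10 to under 50 RPKM, 22 had 5 to under 10 RPKM and 12 had less than 5 RPKM. In the deprived library 74 of the 131 were under 10 RPKM and 9 were under 1 RPKM.

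The deepest fall belonged to neighbouring loci of chromosome 9. Cre09.g403500, a locus with no description, had 47.3 RPKM with phosphate and 0.493 RPKM without it (log2 fold -5.01). With 1 RPKM added, this was the lowest fold of all 13855 loci (0.0505% of which were at least 4-fold lower), named genes included. The locus before it, Cre09.g403450, had 23.7 RPKM with phosphate and 1.55 RPKM without it (log2 fold -3.28). Both lay above the median of the 131 loci with phosphate and under 2 RPKM without it. Cre09.g403400, next in the row, had 11.9 and 4.29 RPKM (log2 fold -1.29). The row stopped there, since the loci on either side had log2 folds of 0.37 (Cre09.g403350, at a mean below 1 RPKM) and 0.91 (Cre09.g403550, with 2.44 and 5.45 RPKM). With 1 RPKM added, only 3 loci without a symbol (0.0277% of 10835) were at least 4-fold lower. These are Cre09.g403500, Cre09.g403450 and the locus left out by the rule. Without a pseudocount other loci passed that mark too, among them Cre06.g277950 (log2 fold -2.63) and Cre10.g421800 (-2.66).

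At an assumed transcript length of 1000 bases, the values of Cre09.g403500 correspond to about 586 reads in the replete and 5 reads in the deprived library. The exact 95% counting interval of its log2 ratio, without a pseudocount, is then -8.70 to -5.84. For Cre09.g403450 the same reckoning gives 293 and 20 reads and an interval of -4.81 to -3.42. Intervals cover counting error only, and the reads behind a value are inferred from the pattern of the lowest values in the table. Counts inferred to have been added to every deposited value are left out of these reads.

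Next in fold were 4 undescribed loci between -1.93 and -1.75, all of low or middling abundance. Cre06.g277950 had 7.27 RPKM with phosphate and 1.18 RPKM without it (log2 fold -1.93). Cre02.g126550 had 17.2 and 4.03 RPKM (log2 fold -1.86). Its neighbour Cre02.g126600, PSRP-4, a plastid-specific ribosomal protein gene, had 7.21 and 3.25 RPKM. With 1 RPKM added PSRP-4 stayed just short of 2-fold lower (log2 fold -0.95), and without it PSRP-4 was more than 2-fold lower. PSRP-4 was picked out after its value was seen. Cre13.g603550 had 19.1 and 4.74 RPKM (log2 fold -1.81), and Cre25.g771300, on a scaffold not placed in a chromosome by its number, had 9.500 and 2.12 RPKM (log2 fold -1.75). With a pseudocount of 5 RPKM the fold of Cre06.g277950 was -0.99, so its place in the list depends on how low values are treated.

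A group of loci combined high abundance with a large difference. Cre17.g702900, the most abundant of the 131, had 1547 RPKM with phosphate and 530 RPKM without it (log2 fold -1.54). If its transcript is 1000 bases long, 19249 and 7572 reads lie behind the values, and the counting interval of the log2 ratio is -1.58 to -1.51. Counting error is small for this locus, and the error between cultures is unknown. Cre26.g773000 had 354 and 109 RPKM (log2 fold -1.69). Cre03.g195650 had 354 and 121 RPKM (log2 fold -1.54). Cre15.g641200 had 193 and 59.5 RPKM (log2 fold -1.68). These values were close to each other in proportion, with each locus losing roughly the same share of its replete level. Cre13.g580850 had 295 and 106 RPKM (log2 fold -1.46), Cre05.g238650 had 148 and 48.05 RPKM (log2 fold -1.61), and Cre12.g519200 had 120 and 39.6 RPKM (log2 fold -1.58). None of these loci carries a description in the table.

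The other abundant loci lay nearer the threshold. Cre02.g084000, second in level, had 562 RPKM with phosphate and 251 RPKM without it (log2 fold -1.16). Cre12.g496000 had 460 and 189 RPKM (log2 fold -1.28). Cre03.g149100 had 297 and 140 RPKM (log2 fold -1.09). They remained well expressed transcripts in the deprived culture. Cre05.g247950 had 287 and 118 RPKM (log2 fold -1.27), Cre13.g604650 had 259 and 112 RPKM (log2 fold -1.198), and Cre06.g263300 had 218 and 92.2 RPKM (log2 fold -1.24). All of the 10 most abundant loci stayed at least 2-fold lower under each scaling and each pseudocount tried.

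**Figure D2:**
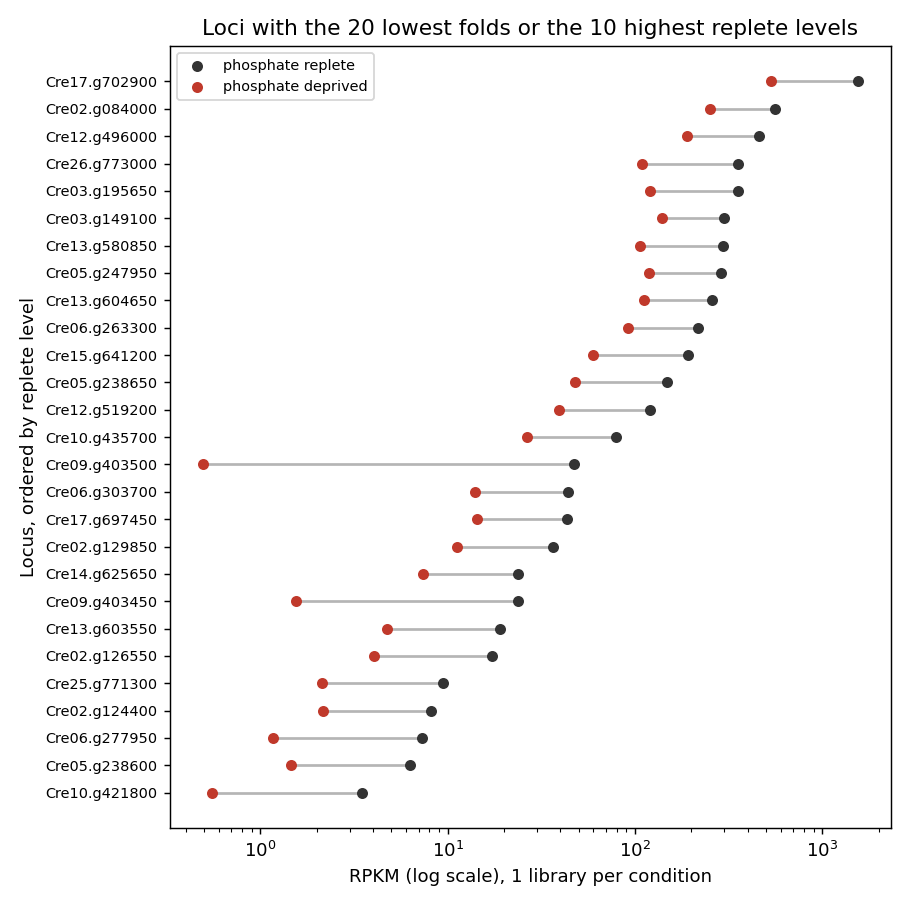
RPKM on a log scale in the replete (black) and the deprived library (red), 1 library each, for the loci with the 20 lowest folds or the 10 highest replete levels, in order of replete level. The longest lines are those of Cre09.g403500 (47.3 to 0.493 RPKM, log2 ratio without a pseudocount -6.58) and Cre09.g403450 (23.7 to 1.55 RPKM, -3.94). The other lines range from -1.09 (Cre03.g149100) to -2.66 (Cre10.g421800).

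The remaining loci among the 20 lowest folds were of middle or low level. Cre02.g129850 had 36.4 and 11.2 RPKM (log2 fold -1.61), Cre06.g303700 had 43.8 and 14.02 RPKM (log2 fold -1.58), and Cre14.g625650 had 23.8 and 7.40 RPKM (log2 fold -1.57). Their folds were like those of the first group of abundant loci above, most of which are also among the 20 lowest folds. Cre02.g124400 had 8.11 and 2.16 RPKM (log2 fold -1.53), and Cre10.g421800 had 3.51 and 0.555 RPKM (log2 fold -1.54). With a pseudocount of 5 RPKM these last loci had folds of -0.87 and -0.62.

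Few of the 131 loci had any description. A description was present for 11 (8.40%), and for 989 of the 10835 loci without a symbol (9.13%), so the lower loci were described about as seldom as unnamed loci in general. Of 10 functional classes defined by words in the descriptions, 4 had a member. No member was described as a ribosomal protein, a ribosome assembly factor, a folding or proteolysis factor, a transporter or membrane protein, a photosynthesis or plastid protein, or a protein of the cell surface or flagella. These classes held between 2 and 70 of the 10835 loci each, so few members could have been found in any of them.

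The clearest pair among the described loci codes for prolyl 4-hydroxylases, enzymes that hydroxylate proline in proteins such as the hydroxyproline-rich glycoproteins of the algal cell wall. Cre02.g084450, described as a prolyl 4-hydroxylase alpha subunit-like protein, had 89.5 RPKM with phosphate and 33.5 RPKM without it (log2 fold -1.39). Cre02.g084400, described as a putative prolyl 4-hydroxylase, had 25.6 and 9.51 RPKM (log2 fold -1.34). They are next to each other in locus order, and their folds were nearly equal although their levels differed. The table describes 11 loci with this enzyme name, 10 of them at a mean of at least 1 RPKM. The other 8 had log2 folds from -0.74 to 0.55, and none was 2-fold different under any scaling tried. Of the 8, 4 were below 0 as deposited, beside 38% of all 13855 loci. Once both libraries were scaled to equal medians 6 were below 0, where the median over all loci was -0.03. How reads shared by near-identical copies were counted is not given in the sources used here, so values of these neighbours are uncertain to that extent.

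The other described enzymes lay near the threshold. Cre06.g288650, described as an omega-6 fatty acid desaturase-like protein, belongs to the enzymes that put double bonds into fatty acid chains. It had 9.81 RPKM with phosphate and 4.14 RPKM without it (log2 fold -1.07). The 11 other loci described with the word desaturase, a group that also includes sterol and carotenoid enzymes, ranged from -0.67 to 1.25. Of these 11, 7 were below 0, beside 38% of all 13855 loci as deposited. None was at least 2-fold lower and 2 were at least 2-fold higher (1 at equal medians). Cre03.g160500, described as lysyl-tRNA synthetase, the enzyme that charges its tRNA with lysine, had 68.2 and 32.5 RPKM (log2 fold -1.04). It is the only locus whose description names lysyl-tRNA synthetase, and symbols were not searched. Of 13 loci described as tRNA synthetases or ligases, 1 besides Cre03.g160500 was at least 2-fold lower, PRORS1 (Cre09.g406200, 26.6 and 12.7 RPKM, log2 fold -1.01). Another of the 13 has the symbol SYK1 (Cre06.g296250, 13.7 and 8.83 RPKM, log2 fold -0.58), picked out afterwards. Of the 12 other than Cre03.g160500, 11 were below 0, beside 38% of all 13855 loci as deposited. With the libraries scaled to equal sums 9 of the 12 were below 0, and neither PRORS1 nor Cre03.g160500 was 2-fold lower. Cre16.g673550, described as related to 5-methyl thioribose kinase, an enzyme of methionine salvage, had 13.1 and 5.94 RPKM (log2 fold -1.03). The word kinase put it in the signalling class, as the only member there, and it fell short of 2-fold lower with equal sums (-0.96) and with a pseudocount of 5 RPKM (-0.73).

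Cre17.g727100, described as most similar to an RNA binding protein, had 45.04 RPKM with phosphate and 17.1 RPKM without it (log2 fold -1.35). Among 34 loci described as RNA binding, 3 were at least 2-fold lower, and the other 2 have symbols. CRB3 (Cre03.g177200) had 41.6 and 15.0 RPKM (log2 fold -1.42), and CGL43 (Cre03.g148950) had 20.1 and 9.12 RPKM (log2 fold -1.06). Of the 33 other than Cre17.g727100, 21 were below 0 (19 with equal sums and 25 with equal medians), beside 38% of all 13855 loci as deposited, and the median of all 34 was -0.11. Those of the 33 at least 2-fold lower numbered 2 as deposited, 1 with equal sums and 3 with equal medians.

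The descriptions of the remaining 5 name no function. Cre17.g697450, a predicted protein described as conserved, had 43.3 and 14.4 RPKM (log2 fold -1.52). Cre11.g479900 had 18.2 and 7.88 RPKM (log2 fold -1.11), and Cre01.g000800 had 4.37 and 1.46 RPKM (log2 fold -1.13). Both are called predicted proteins. Cre12.g502300, a hypothetical protein, had 55.7 and 26.1 RPKM (log2 fold -1.07). Cre01.g010400, of a family described as specific to Chlamydomonas, had 177 and 87.6 RPKM (log2 fold -1.003). The 6 other loci of that description at a mean of at least 1 RPKM were all above 0, from 0.12 to 3.24, although 2 of the 6 were below 0 with equal medians.

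Locus numbers in Chlamydomonas follow the order of genes along a chromosome, and position was not part of the choice. Of the 131 loci, 16 (12.2%) had a locus directly before or after them that was also at least 2-fold lower. The same was true of 279 of all 10835 loci without a symbol (2.57%) and of 8 of the 95 lower loci with a symbol (8.42%). The 16 loci form 9 rows, 7 with a pair of lower loci and 2 with 3, counted without the locus left out. How reads of overlapping genes were counted is not given, so whether neighbours share reads was not tested. The share was between 11.5% and 15.6% of the loci that passed under the scalings, pseudocounts and filters tried, beside 1.35% to 4.84% of all loci without a symbol. Of 11 such neighbouring pairs, 8 could be matched in the reference gene table of assembly Chlamydomonas_reinhardtii_v5.5, and in none of the 8 did another gene lie between them.

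In 5 of the 9 rows all lower loci were without a symbol. Beside the row on chromosome 9, Cre05.g238600 had 6.28 and 1.47 RPKM (log2 fold -1.56), next to the abundant Cre05.g238650 (log2 fold -1.61). With 1 RPKM added their folds were almost the same, although Cre05.g238650 had a far higher level. This match depends on the pseudocount. Without one the folds were -2.10 for Cre05.g238600 and -1.63 for Cre05.g238650, and with 5 RPKM they were -0.80 and -1.53. Cre02.g092400 had 11.7 and 4.02 RPKM (log2 fold -1.34), and Cre02.g092450 had 42.4 and 19.6 RPKM (log2 fold -1.08). Cre13.g568316 had 114 and 52.7 RPKM (log2 fold -1.09), and Cre13.g568350 had 29.7 and 13.7 RPKM (log2 fold -1.06). Cre10.g454050 had 18.3 and 8.13 RPKM (log2 fold -1.08), and Cre10.g454060 had 15.9 and 7.33 RPKM (log2 fold -1.02). This last pair was alike in level as well as in fold. With a pseudocount of 5 RPKM, 1 or both loci of each of these 4 pairs fell short of 2-fold lower, and on chromosome 9 Cre09.g403400 did (-0.87). With equal sums Cre13.g568350 (-0.99) and Cre10.g454060 (-0.95) fell short.

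In the other 4 rows a named gene fell beside the unnamed locus. Cre02.g084000 follows PSRP-3 (Cre02.g083950), a plastid-specific ribosomal protein gene that had 294 RPKM with phosphate and 99.8 RPKM without it (log2 fold -1.55). The prolyl 4-hydroxylase pair follows CGLD1 (Cre02.g084350), a gene of a set conserved among green algae, plants and diatoms, with 38.3 and 16.7 RPKM (log2 fold -1.15). Cre10.g435700 had 79.2 and 26.5 RPKM (log2 fold -1.54), and is followed by PTK26 (Cre10.g435750), described as a protein tyrosine kinase, with 21.2 and 7.24 RPKM (log2 fold -1.43). Cre12.g546500 had 3.22 and 0.842 RPKM (log2 fold -1.195). It precedes FEA1 (Cre12.g546550), which codes for a secreted protein of iron assimilation and had 11.01 and 0.318 RPKM (log2 fold -3.19). Here the named neighbour fell further than the unnamed locus. With a pseudocount of 5 RPKM Cre12.g546500 was at -0.49, short of 2-fold lower.

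**Figure D3:**
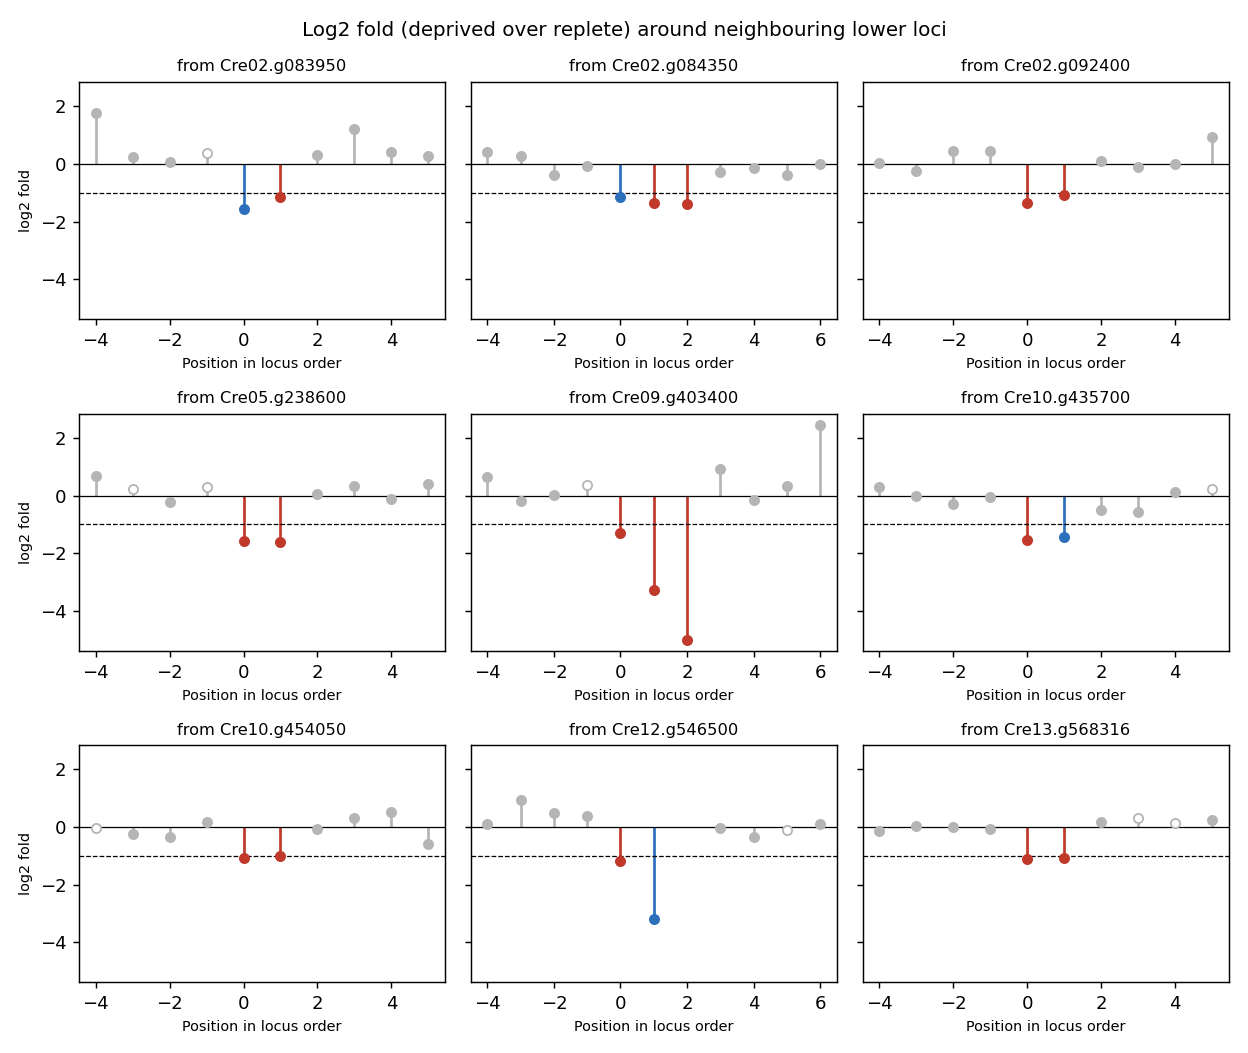
Log2 fold (deprived over replete, 1 RPKM added) by position in locus order around the 9 rows of neighbouring lower loci, with position 0 the first locus of each row, red for lower loci without a symbol, blue for lower loci with a symbol, grey for others, and open points for a mean below 1 RPKM; the dashed line marks the 2-fold threshold, and the gap from Cre12.g546500 is the locus not described. By definition a row ends where the next locus is not at least 2-fold lower, apart from the row that ends at the gap. The row from Cre09.g403400 goes from -1.29 over -3.28 to -5.01.

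Neighbours outside the set could be lower only if they have a symbol, since a lower neighbour without one is itself among the 131. There were 246 such neighbours, 208 of them at a mean of at least 1 RPKM and 45 of these with a symbol. Of the 45, 4 were at least 2-fold lower (PSRP-3, CGLD1, PTK26 and FEA1), beside 3.15% of all loci with a symbol. Of the 208, 6 were at least 2-fold higher, beside 5.59% of all 13855 loci and 5.82% of those without a symbol. The 208 had a median log2 fold of 0.06, beside 0.14 over all 13855 loci, and 43.3% of them were below 0, beside 38%. Besides PSRP-4, ADK6 and CAT1 were neighbours with a symbol just short of 2-fold lower once 1 RPKM was added. Both were picked out after their values were seen. The adenylate kinase gene ADK6 (Cre08.g377100) had 3.65 and 1.36 RPKM (log2 fold -0.97), more than 2-fold lower without the added 1 RPKM. The catalase gene CAT1 (Cre09.g417150) had 178 and 89.4 RPKM (log2 fold -0.99). The opposite also occurred. CGL7 (Cre11.g479950) had 1.25 and 3.33 RPKM (log2 fold 0.94), and CDJ4 (Cre02.g104500) had 4.92 and 10.2 RPKM (log2 fold 0.92). Both were picked out in the same way. They were just short of 2-fold higher with 1 RPKM added and more than 2-fold higher without it. The glutathione S-transferase gene GSTS2 (Cre01.g064400), likewise picked out afterwards, had 71.0 and 184 RPKM (log2 fold 1.36) beside a lower locus.

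The loci were spread over the genome. All 17 chromosomes had at least 1, with 124 in all, and 7 lay on other scaffolds. Per chromosome they made up from 0.328% of the unnamed loci at a mean of at least 1 RPKM on chromosome 7 to 1.92% on chromosome 9. Most locus numbers are multiples of 50. Other numbers were held by 18 of the 131 loci (13.7%), beside 9.13% of the 10835 loci. The reference gene table held 90 of the 131 locus numbers (68.7%) and 72.7% of those of the 10835 loci. That table gives no symbol to any locus, named genes included.

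The share of lower loci rose with level in both kinds of loci. Among loci without a symbol, 49 of 7646 with a mean of 1 to under 10 RPKM were at least 2-fold lower (0.641%), 70 of 2935 with 10 to under 100 RPKM (2.39%) and 13 of 254 with at least 100 RPKM (5.12%). Among loci with a symbol the shares were 0.792%, 3.07% and 8.58%. In each range the share was smaller without a symbol than with one, and 7646 of the 10835 loci without a symbol were in the lowest range against 1137 of the 3020 with one. A pseudocount shrinks folds of weak loci. Without one, the shares of lower unnamed loci from the lowest to the highest range were 1.75%, 2.90% and 5.91%, and those with a symbol 2.37%, 3.65% and 8.77%. With 1 RPKM added, the shares of unnamed loci at least 2-fold higher were 5.01%, 7.63% and 9.45%, above the lower share in each range. For loci with a symbol the higher shares were 5.72%, 4.16% and 4.29%.

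**Figure D4:**
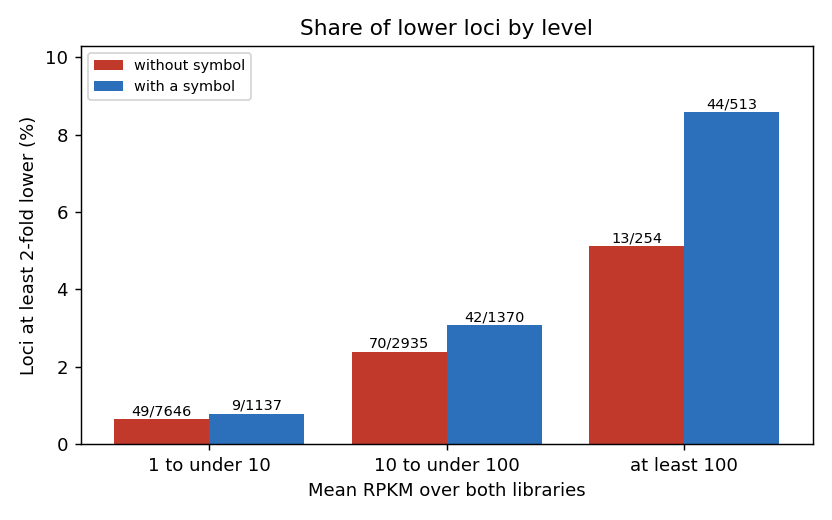
Percentage of loci at least 2-fold lower without phosphate (vertical axis) by mean RPKM over both libraries (horizontal axis), for loci without a symbol (red) and with a symbol (blue), with the number lower of the number measured above each bar. The share rose from 0.641% to 5.12% for loci without a symbol and from 0.792% to 8.58% for loci with one.

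No gap separated the loci on either side of the threshold. Just inside it lay Cre09.g417200 with 73.5 and 35.9 RPKM (log2 fold -1.01), Cre17.g696350 with 20.1 and 9.52 RPKM (log2 fold -1.01), and Cre01.g010400 at -1.003. Just outside lay Cre09.g394300 with 2.002 and 0.501 RPKM (log2 fold -0.9998), Cre14.g609000 with 29.4 and 14.3 RPKM (-0.997), and Cre06.g306300 with 223 and 111 RPKM (-0.996). Without the added 1 RPKM each of these loci outside would have passed, Cre09.g394300 by a wide margin and the others barely. For Cre17.g696350, 249 and 134 reads at 1000 bases give a counting interval of -1.41 to -0.79 for the log2 ratio, which spans the threshold. At the lowest level, Cre16.g694809, picked out for it, had 1.85 and 0.387 RPKM, about 21 and 4 reads at that length, with an interval of -4.60 to -1.03. The 84 loci not named by the rule had 1.85 to 140.0 RPKM in the replete and 0.387 to 62.6 RPKM in the deprived library, with log2 folds from -1.52 to -1.01.

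How the values were scaled set how many unnamed loci passed. Scaling both libraries to the same median lowered the median fold over all loci by 0.17, to -0.03, and 256 loci without a symbol were then at least 2-fold lower, among them all 131. Scaling to a common sum raised that median by 0.06 and kept 104 of the 131. Of the loci at least 2-fold different, 77.3% were higher in the deposited values, 53.9% with equal medians and 83.1% with equal sums. Trimmed mean scaling (56.5%) and quantile normalization (56.4%) gave splits near that of equal medians.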

How the data were processed

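The authors deposited RPKM values for both libraries in 1 table, with symbols and descriptions; the column headers are the library codes of the labels. Bowtie is named, without a version, per the submitters' processing notes. How reads were counted, on which build and annotation and with which filters, is not stated in the labels or the file, so no coordinates are printed. Calculations were done in Python 3.11.15 with numpy 2.4.6, pandas 2.3.3 and scipy 1.17.1.

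Loci, word lists and the rule for named loci were chosen with earlier results of these data known. Named are the 20 lowest folds, the 10 highest replete levels, the 3 lowest folds and 2 highest levels of each class, loci in rows of lower neighbours, and the 3 loci on either side of the threshold. Apart from those said to be picked out, loci with a symbol are named as lower neighbours or as lower loci of the same description.

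No test was possible with 1 library per condition. The table holds no 0, and 1246 loci share the ratio 0.8704 between libraries, the pattern of loci without reads to which a count was added. Read as 2 added counts per library, an inference, 10.4 and 12.3 reads lie behind 1 RPKM in the replete and deprived library at 1000 bases. RPKM summed to 901012 and 855498. The reference table paired 12620 loci of the table by locus number.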

Additional observations from a re-analysis of the deposited data

How the results depend on the processing

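Results are for 131 loci, 16 of them beside another lower locus and 6 in a functional class, with a median log2 fold of -1.18. The counts of lower loci without a symbol, of those with a lower neighbour and of those in a class were 219, 28 and 9 with a pseudocount of 0.1 RPKM, 48, 6 and 3 with 5 RPKM, 256, 37 and 12 with equal medians, 235, 34 and 11 with trimmed mean scaling (outer 30% by ratio and 5% by level left out), and 257, 40 and 10 with quantile normalization. Without a pseudocount, an alternative added after the data were seen, 233 loci passed. A common sum gave 104 loci and a mean of at least 5 RPKM gave 110; omitting the filter changed no count. The 131 loci were all among those that passed in each of these settings except with 5 RPKM (48 kept), the common sum (104 kept) and the higher mean (110 kept). Their median ranged from -0.92 with 5 RPKM to -1.36 with equal medians.

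Of the 47 named loci, 20 were no longer 2-fold lower with 5 RPKM and 8 after scaling to a common sum. Cre09.g403500 ranged from -3.25 with 5 RPKM to -6.58 without a pseudocount. The latter ratio still holds the 2 counts per library inferred to be in the deposited values, which its counting interval leaves out. No paired analysis was possible because each condition had 1 library. Depth limits the weakest loci: 7 of the 131 would have no reads in the deprived library only if their transcripts were as short as 200 to 362 bases, among them Cre09.g403500 at 284 bases. The cause of these shifts was not tested beyond the settings' own construction.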
